A study of Rattus norvegicus with 12 samples.

Results

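Extrachromosomal circular DNA (eccDNA) annotated to 2 genes, Luzp2 and Astn2, is described here in rat back skin. The circles were taken from the series' list by their annotation: an entry was kept when its type was exon or intron and its gene symbols held Luzp2 or Astn2. This gave 226 of the 228353 listed eccDNA, 113 for each gene, and 233 of 242855 calls when a circle is counted once in every library that holds it. The 12 Circle-seq libraries came from the skin of wild-type SD (Sprague Dawley) rats. Untreated skin (control) gave 4 libraries. Skin that had received 2 weekly 5 Gy fractions of electron beam radiation (5 Gy x2) gave 4, and skin that had received 4 weekly fractions (5 Gy x4) gave another 4, each sampled on day 7 after its last fraction. The labels give no age and no sampling time for control skin, so dose and time cannot be told apart. They also leave unsaid whether each library is 1 animal. An SD here therefore describes how far these libraries spread, and a p takes libraries, not animals, as its units. Some of the spread can be technical.

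Short circular DNA is released from chromosomes throughout the body's tissues, and most such circles carry a piece of a gene or of the DNA between genes rather than a working gene. Luzp2 encodes leucine zipper protein 2, known mainly from the brain. Astn2 encodes astrotactin 2, a membrane glycoprotein that helps to traffic its relative astrotactin 1 while young neurons migrate along glial fibres. Both are long genes made almost wholly of introns, and Trim32, which encodes a ubiquitin ligase, is nested in an intron of Astn2. A circle from such a gene says that its DNA was released and captured, and nothing about the gene's expression.

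The libraries differed in size, which sets how finely a single gene can be read. Control libraries listed 3601 to 10389 eccDNA, 5 Gy x2 libraries 6326 to 28757 and 5 Gy x4 libraries 20124 to 46163, on 34499 to 397674 supporting reads over all 12. Circles of 330 to under 420 bp made up 16.1% to 44.6% of a control library (16.1% in control replicate 4) and 60.5% to 70.3% of an irradiated one. A circle was counted as present when at least 1 deposited supporting read was counted for it. Values are given as circles of the gene per 10000 eccDNA of the library. Their 95% intervals are exact binomial (Clopper-Pearson) intervals that cover counting error only, since amplified reads are not independent molecules. For a count of 0 the limit given is 3 circles over the total, which is lower than the upper end of the two-sided exact interval. Both genes were chosen with their difference between 5 Gy x4 and control known, so their values against control, which also serve 5 Gy x2, are a description with no test.

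Luzp2 (ENSRNOG00000021507) had few circles in control skin and more in irradiated skin. Its circles numbered 1, 1, 2 and 0 in control replicates 1 to 4. They numbered 12, 18, 10 and 4 in the 5 Gy x2 replicates and 11, 16, 26 and 16 in the 5 Gy x4 replicates. The control counts are so low that 1 circle more or less changes the share of a library by a large part of its value.

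On the scale of circles per 10000 eccDNA, Luzp2 stood at 2.09, 1.06, 1.93 and 0 in the control libraries. The 5 Gy x2 libraries stood at 6.31, 6.26, 3.64 and 6.32, and the 5 Gy x4 libraries at 4.98, 3.58, 5.63 and 7.95. Every irradiated library lay above every control library, and the irradiated groups overlapped each other. The group means were 1.27 ± 0.958 in control, 5.64 ± 1.33 at 5 Gy x2 and 5.54 ± 1.82 at 5 Gy x4 (SD, n = 4), 4.45-fold and 4.37-fold the control mean. Of the 934 genes with at least 20 circles, 7.82% lay in the same way wholly above control in 5 Gy x4 and 4.93% in 5 Gy x2. Nothing is read from this for Luzp2, which was chosen on that contrast.

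Single control libraries could not place the Luzp2 share closely. Control replicate 4 held 0 Luzp2 circles among 3601 eccDNA, which by the limit of 3 circles allows up to 8.33 per 10000 (10.2 by the exact interval), more than the highest irradiated library showed. In control replicate 1 the interval ran from 0.0528 to 11.6 per 10000. Pooled over the group, 4 of 28230 control eccDNA were Luzp2 circles (1.42 per 10000, interval 0.386 to 3.63). The pooled 5 Gy x2 share was 5.40 per 10000 (3.92 to 7.24) and the pooled 5 Gy x4 share 5.18 (4.03 to 6.56). These intervals describe counting error in the pooled libraries and not the spread between libraries. Without control replicate 4 the difference in mean share was 3.95 per 10000 for 5 Gy x2 and 3.85 for 5 Gy x4.

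Astn2 (ENSRNOG00000060105) also had a higher mean share in irradiated than in control skin, with the 5 Gy x2 mean between those of the other groups. Its circles numbered 1, 1, 4 and 0 in the control replicates, 10, 13, 9 and 2 in the 5 Gy x2 replicates and 17, 21, 26 and 12 in the 5 Gy x4 replicates. Per 10000 eccDNA the control libraries stood at 2.09, 1.06, 3.85 and 0. The 5 Gy x2 libraries stood at 5.26, 4.52, 3.28 and 3.16, and the 5 Gy x4 libraries at 7.69, 4.70, 5.63 and 5.96. All 5 Gy x4 libraries lay above all control libraries, whereas 5 Gy x2 replicates 3 and 4 lay below control replicate 3.

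The Astn2 means were 1.75 ± 1.64 in control, 4.06 ± 1.01 at 5 Gy x2 and 5.997 ± 1.25 at 5 Gy x4 circles per 10000 eccDNA (SD, n = 4). These were 2.32-fold and 3.43-fold the control mean. Control replicate 3 held 4 of the 6 control circles, and without it the control mean was 1.05 and the ratios 3.87 and 5.72. Pooled over the group, 6 control circles gave 2.13 per 10000 (interval 0.780 to 4.63). The pooled shares were 4.17 per 10000 at 5 Gy x2 (2.89 to 5.83) and 5.71 at 5 Gy x4 (4.50 to 7.15).

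Because circles of 330 to under 420 bp were scarcer in control libraries, the shares of both genes were also computed within length classes. Among circles of that class the mean Luzp2 share was 2.11 per 10000 in control, 5.56 at 5 Gy x2 and 5.32 at 5 Gy x4, with overlapping groups. Among circles of other lengths it was 0.842, 5.62 and 5.91, with every irradiated library above every control library. For Astn2 the class means were 1.08, 4.01 and 6.10, with overlapping groups, and the means of other lengths 2.06, 4.08 and 5.84, with 5 Gy x4 above control throughout. Both genes had higher means in irradiated skin in both classes, by 2.52-fold and 7.02-fold for Luzp2 and 5.65-fold and 2.84-fold for Astn2 in 5 Gy x4. The control side of all these ratios rests on 10 circles of both genes, 4 of them of 330 to under 420 bp. The ratios are therefore loose, and they come from the contrast known when the genes were chosen. The part of circle length and of other library properties in these values was not tested.

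**Figure D1:**
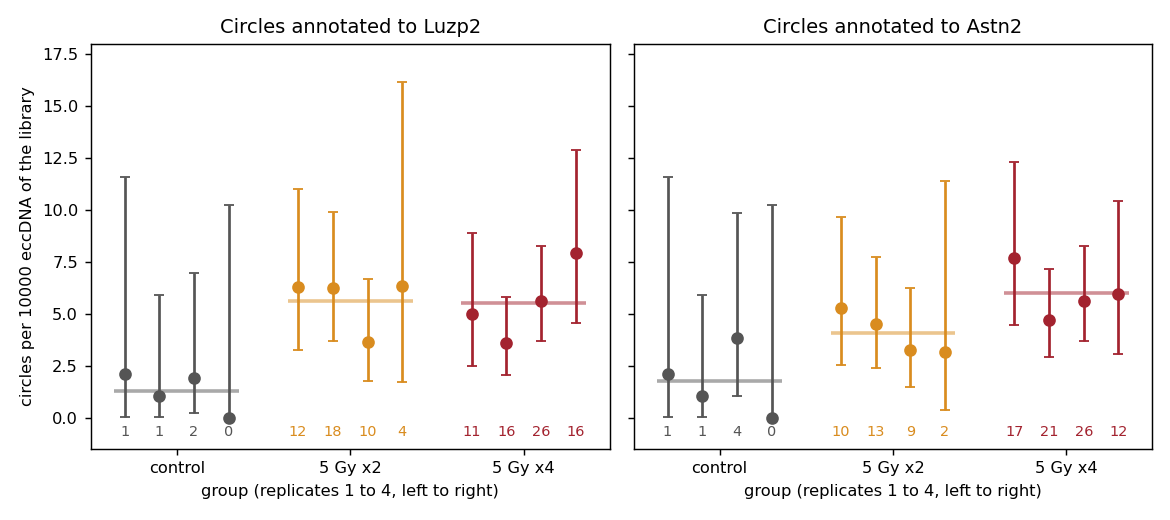
Circles annotated to Luzp2 (left) and Astn2 (right) per 10000 eccDNA in each library (points) with exact 95% binomial intervals (bars), the group mean (horizontal line) and the number of circles (digits under the points). Control libraries hold 0 to 4 circles of either gene and have wide intervals, and every 5 Gy x4 library lies above every control library for both genes.

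The 2 irradiated groups were compared in 1 edgeR fit of all 12 libraries across 934 genes, with each library's number of eccDNA as its size. For Luzp2 the log2 fold change of 5 Gy x4 against 5 Gy x2 was -0.05 (SE 0.31, edgeR adjusted p = 0.981), with a 95% interval from -0.66 to 0.56. For Astn2 it was 0.46 (SE 0.32, edgeR adjusted p = 0.932), with a 95% interval from -0.18 to 1.09 and the groups overlapping. The 5 Gy x4 libraries had also served to choose the genes, so this comparison is not wholly independent of the choice. Across all 934 genes 0 passed an adjusted p of 0.05 in this comparison (0%), with 49 at an unadjusted p under 0.05 and 0 by DESeq2. Neither gene's irradiated groups differed beyond their spread, and for Luzp2 the sign of the value turned under 4 of 7 other settings.

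Against control, the same fit placed both genes high but not first. The log2 fold change of Luzp2 was 1.84 (SE 0.64) in 5 Gy x4 and 1.89 (SE 0.66) in 5 Gy x2, higher than in 89.3% and 90.3% of the 934 genes. Those of Astn2 were 1.41 (SE 0.56) and 0.96 (SE 0.62), higher than in 83.1% and 75.5%. The fit called 20 genes in 5 Gy x4 (2.14%), of which 1 was higher (0.107%) and 19 lower (2.03%), and 7 in 5 Gy x2 (0.749%), all lower. Neither Luzp2 nor Astn2 was among them. When genes were filtered by edgeR's filterByExpr only 15 remained, and the 2 genes called higher in 5 Gy x4 (13.3%) were Luzp2 and Astn2. In 5 Gy x2 that filter left 1 gene called higher (6.67%), Luzp2. Under that filter p-values were adjusted over 15 instead of 934 genes, and the log2 fold changes were 1.86 for Luzp2 and 1.44 for Astn2 in 5 Gy x4. With TMM factors, which raised the median log2 fold change of all genes in 5 Gy x4 from 0.17 to 0.82, Luzp2 stood at 2.51 and was 1 of 2 genes called higher (0.214%), and Astn2 stood at 2.09 and was not called. Nothing is read from these calls, since the contrast had served to choose both genes.

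Supporting reads gave the same order of groups as circle numbers over a wider range. Luzp2 circles held 1, 8, 12 and 0 reads in the control replicates, 257, 48, 78 and 17 in the 5 Gy x2 replicates and 83, 96, 113 and 205 in the 5 Gy x4 replicates. Astn2 circles held 1, 12, 41 and 0 reads in control, 253, 34, 71 and 29 at 5 Gy x2, and 152, 141, 88 and 123 at 5 Gy x4. The highest value of each gene was in 5 Gy x2 replicate 1, the library with the most supporting reads. Per 10000 supporting reads, Luzp2 stood at 0.399 in control, 4.38 at 5 Gy x2 and 5.03 at 5 Gy x4 (group means). Astn2 stood at 0.861, 4.52 and 5.33.

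The Luzp2 annotation covers more than Luzp2. Its circles lay on chromosome 1 from 111854059 to 113527175 (rn6), a span of 1.67 Mb. Within that span 70 of the 113 entries were also annotated to a second gene. Among these were 43 with Gabrg3 (112199158 to 112799291) and 8 with Gabra5 (112872058 to 112945967), which encode subunits of the GABA-A receptor, the chloride channel of inhibitory synapses. The other 43 entries, 38.1%, named Luzp2 alone. In RefSeq's gene order on the newer assembly GRCr8, Luzp2 is followed by Nipa1 and Siglech and overlaps no other protein-coding gene, and Gabrg3 lies beyond it with 7 protein-coding genes between. The rn6 gene model thus spans Gabrg3, which the newer gene order places outside Luzp2, and a circle from there was listed under both names.

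Of the entries with Luzp2 alone, 25 lay before the first Gabrg3 circle, in 0.299 Mb. In control the entries with Luzp2 alone numbered 0 in all 4 libraries. They numbered 3, 9, 1 and 1 in the 5 Gy x2 replicates and 3, 6, 12 and 9 in the 5 Gy x4 replicates. Taken at the limit of 3 circles over the group, 0 among the 28230 control eccDNA allows up to 1.06 per 10000 (1.31 by the exact interval). The pooled shares were 1.62-fold this limit of 1.06 at 5 Gy x2 and 2.12-fold at 5 Gy x4. These ratios leave out counting error on the irradiated side and are no test. The pooled interval was 0.939 to 2.88 per 10000 at 5 Gy x2, which reaches below 1.06, and 1.52 to 3.22 at 5 Gy x4. The 4 control circles of Luzp2 all named a second gene, 3 with Gabrg3 and 1 with Gabra5.

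Circles with Luzp2 alone averaged 1.66 ± 1.13 per 10000 eccDNA at 5 Gy x2 and 2.44 ± 1.48 at 5 Gy x4 (SD, n = 4). Circles shared with Gabrg3, which encodes the gamma 3 subunit, averaged 1.00 ± 1.16 in untreated skin, 1.77 ± 0.582 after 2 fractions and 2.25 ± 0.704 after 4. Gabra5 (alpha 5 subunit) added 1 circle in control, 1 at 5 Gy x2 and 6 at 5 Gy x4. Over all circles shared with a second gene the means were 1.27 ± 0.958, 3.97 ± 0.888 and 3.09 ± 0.623.

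Astn2 circles lay on chromosome 5 from 81191976 to 82164810 (rn6), a span of 0.973 Mb, and named no second gene but for 1 entry shared with Trim32. That entry, 414 bp from 81440949 to 81441362, was typed exon and found in 5 Gy x4 replicate 4 with 2 reads. It was the only Trim32 circle in the series. In RefSeq's gene order, Pappa precedes Astn2 and Tlr4 and Brinp1 follow it, with Trim32 inside, as in the deposited annotation. One further circle, 248 bp from 81179089 to 81179336, was typed as lying within 2 kb downstream of Astn2 (5 Gy x2 replicate 3, 2 reads) and was not counted. Of the 157 larger circles listed apart as ecDNA, 0 named either gene.

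Within each gene the circles were scattered. With the Luzp2 span cut into 4 equal parts from low to high coordinates, 5 Gy x2 circles numbered 8, 13, 9 and 14 and 5 Gy x4 circles 22, 18, 15 and 14. With the Astn2 span cut likewise they numbered 10, 5, 9 and 10 at 5 Gy x2 and 22, 9, 21 and 24 at 5 Gy x4. The median distance between neighbouring midpoints was 11.2 kb in Luzp2 (largest 78.7 kb) and 5.17 kb in Astn2 (largest 55.3 kb). Only 2 pairs of Luzp2 entries and 4 pairs of Astn2 entries overlapped at all, 1 and 2 of them by at least 50% of both circles. No stretch of either gene carried most of its circles, although the second part of Astn2 held the fewest in both irradiated groups.

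**Figure D2:**
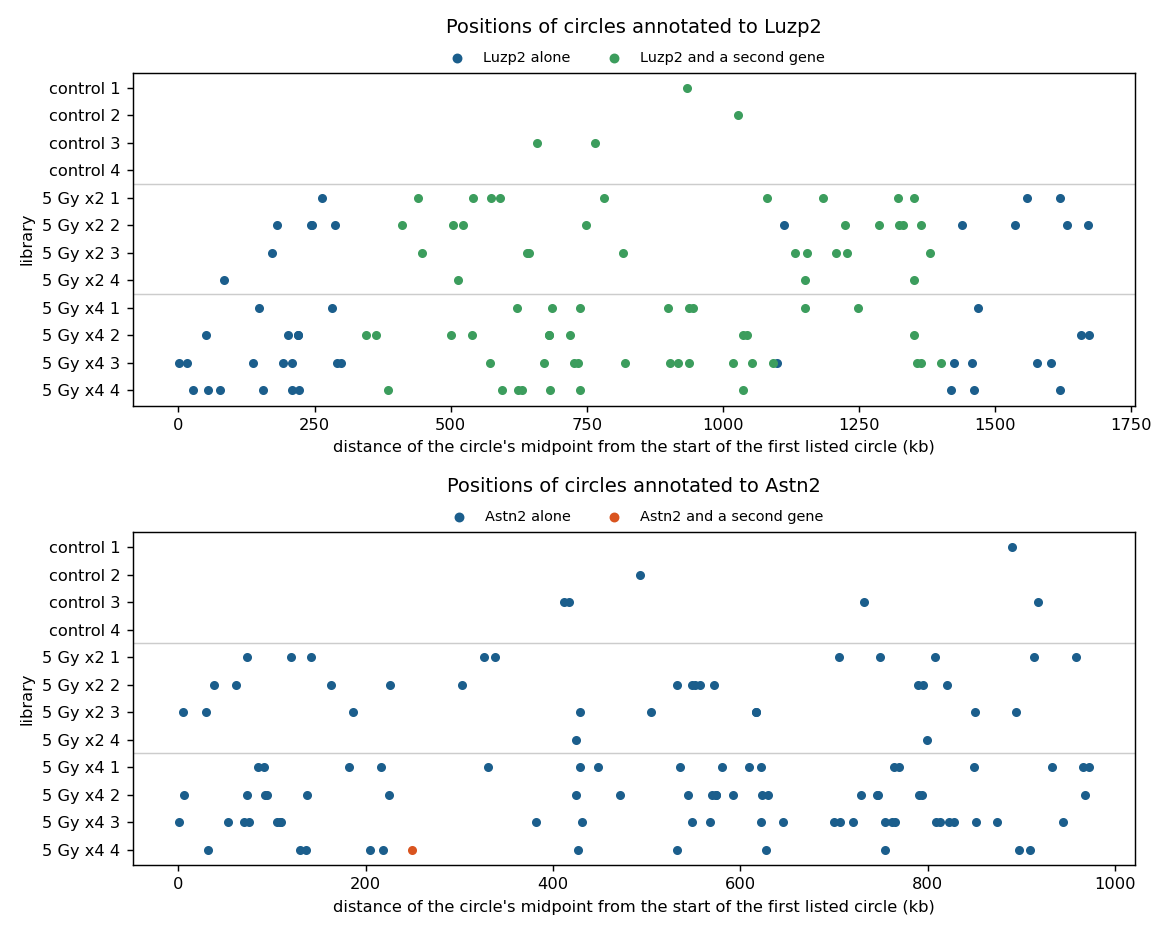
Each point is 1 circle in 1 library, placed by the distance of its midpoint from the first listed circle of the gene (kb), with 1 row per library and colour for whether a second gene is annotated. Control rows hold 4 Luzp2 and 6 Astn2 points, the Luzp2 points all in the part shared with a second gene, and irradiated points are scattered along both genes.

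Set against length, Luzp2 was sparse in control skin and near the genome's average in irradiated skin. Spread evenly to the last circle of each chromosome, 10000 circles would give 3.60 per Mb. Luzp2 had 0.757 ± 0.572 circles per Mb per 10000 eccDNA in control, 3.37 ± 0.794 at 5 Gy x2 and 3.31 ± 1.09 at 5 Gy x4 (SD, n = 4). Astn2 had 1.80 ± 1.69, 4.17 ± 1.04 and 6.16 ± 1.29. The higher irradiated values of Luzp2 were thus close to an even spread and those of Astn2 in 5 Gy x4 above it.

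The DNA beside the genes was examined next, since its circles were not used to choose them, although 10 Mb windows that hold these regions were already known to carry a larger share in irradiated skin. Flanking circles were those with a midpoint within 2 Mb of either end of the span, 220 entries for Luzp2 and 343 for Astn2. The Luzp2 flanks held 6.26, 8.47, 7.70 and 0 circles per 10000 eccDNA in the control replicates. They held 12.6, 10.4, 9.11 and 11.1 in the 5 Gy x2 replicates and 7.69, 11.9, 8.66 and 6.96 in the 5 Gy x4 replicates. All 5 Gy x2 libraries lay above all control libraries, and the 5 Gy x4 libraries overlapped them.

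The Luzp2 flanks averaged 5.61 ± 3.85 per 10000 in control, 10.8 ± 1.46 at 5 Gy x2 and 8.79 ± 2.16 at 5 Gy x4 (SD, n = 4). The ratio to control was 1.93 at 5 Gy x2 (two-sided exact permutation p = 0.0286, the smallest that 4 against 4 allow, adjusted p = 0.0857 over 6 tests) and 1.57 at 5 Gy x4 (exact p = 0.229, adjusted p = 0.274). Without control replicate 4, which held 0 flanking circles, the 5 Gy x2 ratio was 1.45 (exact p = 0.0571). Between the irradiated groups the flanks differed by -2.02 per 10000 in 5 Gy x4 (exact p = 0.200). No difference passed adjustment, but with a smallest p of 0.0286 and 6 tests no single pair of groups could pass by itself. The flank ratios to control were below the 4.45 and 4.37 of Luzp2 itself, a gap that was not tested. Luzp2 was chosen with its difference from control known and its flanks were not. Nothing is therefore read from this gap or from the share of Luzp2 within its region. Of the circles in Luzp2 and its flanks together, Luzp2 held 17.4% in control (4 against 19), 33.8% at 5 Gy x2 (44 against 86) and 35.8% at 5 Gy x4 (69 against 124).

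The Astn2 flanks, which hold the genes Pappa1 and Tnc among others, had higher means in both irradiated groups, as Astn2 did. They held 6.26, 9.53, 6.74 and 5.55 circles per 10000 eccDNA in the control replicates, 16.3, 15.6, 20.04 and 4.74 in the 5 Gy x2 replicates, and 17.2, 13.9, 15.2 and 12.9 in the 5 Gy x4 replicates. All 5 Gy x4 libraries lay above all control libraries, whereas 5 Gy x2 replicate 4, with 3 flanking circles, lay below them. The means were 7.02 ± 1.74 in control, 14.2 ± 6.59 at 5 Gy x2 and 14.8 ± 1.85 at 5 Gy x4 (SD, n = 4). The ratio to control was 2.11 in 5 Gy x4 (exact permutation p = 0.0286, adjusted p = 0.0857) and 2.02 in 5 Gy x2 (exact p = 0.143, adjusted p = 0.274). Without 5 Gy x2 replicate 4 the latter was 2.47 (exact p = 0.0286, adjusted p = 0.0857). The share of Astn2 within its region was 22.2% in control (6 against 21), 20.2% at 5 Gy x2 (34 against 134) and 27.9% at 5 Gy x4 (76 against 196). As for Luzp2, the gene was chosen on its difference and the flanks were not, so nothing is read from these shares.

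**Figure D3:**
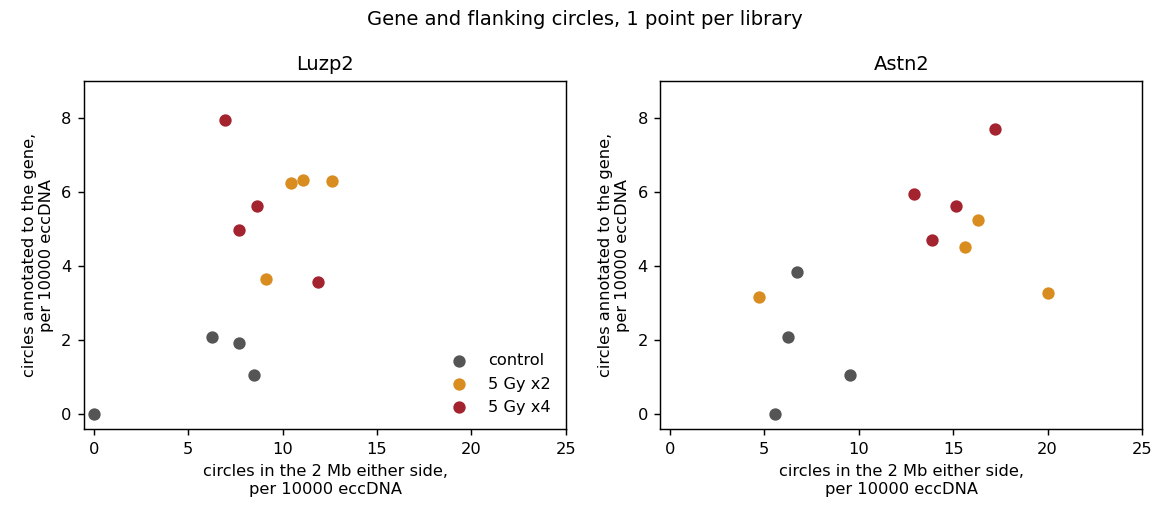
Circles annotated to the gene (vertical axis) against circles in the 2 Mb either side (horizontal axis), both per 10000 eccDNA, with 1 point per library coloured by group. For Luzp2 the control and 5 Gy x4 points overlap along the horizontal axis (0 to 8.47 against 6.96 to 11.9) but not along the vertical one, and for Astn2 they are apart on both. The genes were chosen with this contrast known and the flanks were not.

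The circles of both genes had the lengths usual for this data set. Their median length was 368 bp for Luzp2 (quartiles 347 and 389) and 362 bp for Astn2 (318 and 388), against 359 bp for the other 83664 exon or intron entries (329 and 381). Circles of 330 to under 420 bp, a length close to that of dinucleosomal DNA, made up 78 Luzp2 and 74 Astn2 entries, 67.3% of all 226 against 66.4% of other entries. A further 17 and 25 were 150 to under 250 bp long, a length close to that of mononucleosomal DNA. Only 1 Luzp2 and 1 Astn2 entry reached 1000 bp. The 10 control circles had a median of 294 bp (195 to 435) and 4 lay in the 330 to under 420 bp class, against 69.2% of the 78 circles at 5 Gy x2 and 66.2% of the 145 at 5 Gy x4.

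**Figure D4:**
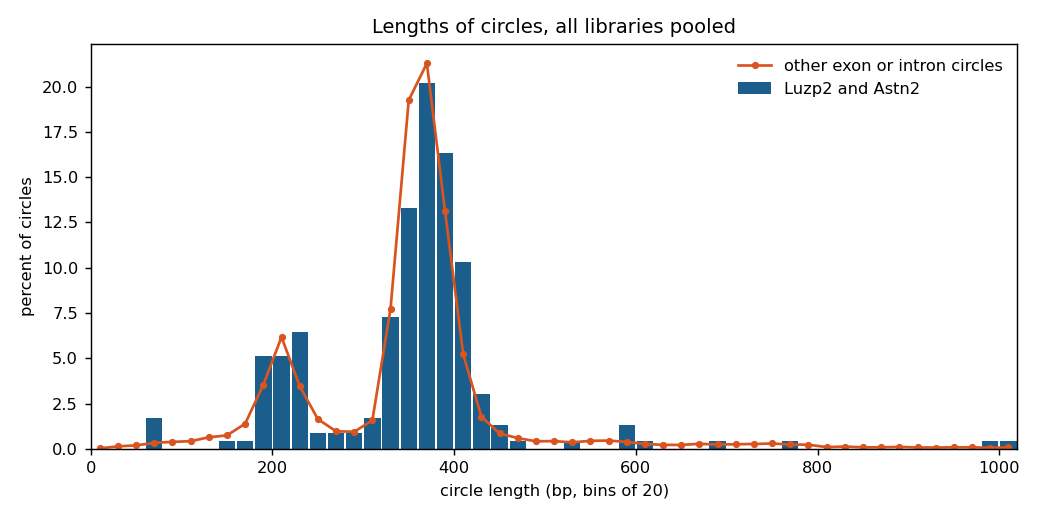
Length of circles (horizontal axis, bins of 20 bp) as percent of all circle calls, for both genes together (bars) and for other exon or intron circles (line), over all 12 libraries. Both profiles have their largest bin at 360 to 380 bp (20.2% and 21.3%) and a smaller peak near 200 bp, and the bars are higher at 400 to 420 bp (10.3% against 5.21%).

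Set against other exon or intron circles of the same library, the circles of both genes did not stand apart in length, reads or label. In the 9 libraries with at least 5 such circles, the median length differed by -0.278 ± 25.2 bp (mean and SD of the within-library differences, higher in 5 and lower in 4 libraries; two-sided exact sign-flip permutation p = 0.984). The percent of 330 to under 420 bp differed by 0.549 ± 5.88 points (exact p = 0.773). Median supporting reads per circle differed by -0.0556 ± 2.47 (exact p = 1). The percent labelled hconf, a label that the deposited table does not define, differed by 0.202 ± 8.89 points (exact p = 0.949). After adjustment over the 4 measures each p was 1, and the wide spreads leave room for differences of many base pairs or points.

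Between the irradiated groups the pooled circles of both genes differed by 16.9 bp in median length, 376 ± 10.5 bp in 5 Gy x4 against 359 ± 15.4 bp in 5 Gy x2 (SD, n = 4). This was within the spread between libraries (exact permutation p = 0.114, adjusted p = 0.457 over 4 measures), with values of 370 to 391.5 bp in 5 Gy x4 and 343 to 380 bp in 5 Gy x2. The share of 330 to under 420 bp, the median reads and the percent labelled hconf had exact permutation p-values of 0.857, 0.714 and 0.943.

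Nearly all circles of the 2 genes were intronic and seen once. Exonic entries numbered 2 for Luzp2 and 3 for Astn2, 2.21% of the members against 12.8% of other genic entries. Entries found in 2 or more libraries numbered 3 for each gene, 2.65% against 4.15%. Neither contrast was tested. No entry of either gene was shared between a control library and another library.

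Of the Luzp2 circles found in more than 1 library, a 418 bp intronic circle from 112061614 to 112062031 had 2 and 15 reads in 5 Gy x4 replicates 3 and 4. A 425 bp circle from 112590624 to 112591048, shared with Gabrg3, had 1 and 8 reads in 5 Gy x4 replicates 1 and 4. The best supported Luzp2 entry, 221 bp from 113411861 to 113412081, had 61 reads in 5 Gy x2 replicate 1 alone. The longest Luzp2 entry was typed exon, 1014 bp from 112944954 to 112945967, shared with Gabra5 and held by 4 reads in 5 Gy x4 replicate 3.

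In Astn2 the 3 recurrent circles were all intronic. One of 388 bp from 81265561 to 81265948 held 41 reads and one of 309 bp from 81616388 to 81616696 held 34, each in 1 library of 5 Gy x2 and in 5 Gy x4 replicate 2. One of 453 bp from 81814344 to 81814796 held 9 reads in 5 Gy x4 replicates 1 and 3. The best supported Astn2 entry, 334 bp from 82149993 to 82150326, had 84 reads in 5 Gy x2 replicate 1. The longest, 1215 bp from 81957071 to 81958285, rested on 1 read in 5 Gy x4 replicate 3. The exonic Astn2 entries other than that shared with Trim32 were 401 bp from 82040878 to 82041278 (8 reads, 5 Gy x4 replicate 1) and 223 bp from 81723906 to 81724128 (3 reads, 5 Gy x2 replicate 2). Reads per circle were otherwise low, with a median of 4 over all libraries for each gene and 18 Luzp2 and 21 Astn2 entries resting on 1 read.

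Luzp2 and Astn2 ranked 9 and 10 of 934 genes by number of circles, with 117 and 116 calls. Over the 12 libraries their shares had a Pearson correlation of 0.76, and within the 8 irradiated libraries it was 0.20. The genes whose shares went most like Luzp2 over 12 libraries were Bank1 (r = 0.92; 0.83 within the 8 irradiated libraries), Vps41 (0.88 and 0.61), Galnt7 (0.85 and 0.47), Nfasc (0.85 and 0.83) and Nubpl (0.85 and 0.70). Bank1 encodes a B-cell scaffold protein and Nfasc the axonal adhesion protein neurofascin. Bank1 had 1 circle in control, 14 at 5 Gy x2 and 24 at 5 Gy x4. Those most like Astn2 were Abca13 (0.88 and 0.67), AABR07033882.1 (0.87 and 0.88), Cenpn (0.86 and 0.83), Cacnb2 (0.86 and 0.70) and Tmeff2 (0.86 and 0.86). Abca13, a transporter gene of the ABC family, had 1, 10 and 24 circles. Of these 10 genes, 5 had 0 circles in control, and the shares of all genes in a library have its number of eccDNA in common. The correlations are a description, picked as the highest of 933.

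Genes listed as neighbours of Luzp2 and Astn2, long genes active in neurons and genes of glial-guided migration were counted as lists. Of 40 long neuronal genes 27 had a circle and 24 could be tested, and 0 passed an adjusted p of 0.05 (edgeR) in any comparison. Over all 934 genes, 2.14% passed in 5 Gy x4 against control, 0.749% in 5 Gy x2 against control and 0% between the doses. With shares this low, a count of 0 says little about a list of this size. Their median log2 fold change was 0.38 in 5 Gy x4 and 0.67 in 5 Gy x2 against control, beside 0.17 and 0.05 over all 934 genes. Nrxn3, a synaptic adhesion gene, stood at 3.92 ± 1.41 circles per 10000 eccDNA in control, 5.81 ± 2.32 at 5 Gy x2 and 6.78 ± 2.06 at 5 Gy x4 (SD, n = 4). Cdh13, a cadherin gene, stood at 5.31 ± 2.30, 5.65 ± 0.974 and 4.78 ± 1.42 in the same order, with no higher mean in 5 Gy x4. The long neuronal genes thus ran in both directions, with 16 of 24 above 0 against control at each dose. Of all 934 genes, 525 (56.2%) were above 0 in 5 Gy x4 and 500 (53.5%) in 5 Gy x2. Whether the list differs from these shares was not tested.

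Of 17 genes of glial-guided migration, 14 had a circle and 5 could be tested. EdgeR called 0 of these 5 in any comparison, beside 2.14%, 0.749% and 0% of all 934 genes in the same 3 comparisons. Their median log2 fold changes were 0.95 (5 Gy x4) and 1.10 (5 Gy x2) against control. Dab1, an adaptor of reelin signalling, stood at 1.81 ± 1.79, 2.35 ± 1.01 and 1.85 ± 0.854 circles per 10000 eccDNA in the 3 groups in order of fractions. Reln, which encodes reelin, stood at 0.241 ± 0.481, 2.41 ± 1.56 and 1.64 ± 0.861. Cdh2, which encodes N-cadherin, stood at 0.762 ± 0.992, 1.37 ± 0.390 and 1.37 ± 0.492.

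The listed neighbours had fewer circles than the 2 genes. Of 16 for Luzp2, 13 had a circle and 4 could be tested. EdgeR called 0 of these 4, beside 2.14% of all 934 genes in 5 Gy x4 and 0.749% in 5 Gy x2 against control. The 4 had a median log2 fold change of 1.39 in 5 Gy x4 and 1.89 in 5 Gy x2 against control. Those 4 include Gabrg3, whose circles (3 in control, 14 at 5 Gy x2 and 27 at 5 Gy x4) were all listed under Luzp2 too. The same holds for another gene of the 4, so the list's median rests in part on Luzp2 circles. With genes that had 0 control circles at the bound of 3 circles over the control group, the medians were 1.08 and 1.19. Nell1, which encodes a secreted growth factor, stood at 0.770 ± 1.01, 2.82 ± 2.26 and 2.61 ± 0.485 circles per 10000 eccDNA in the 3 groups in order of fractions. Ano3 stood at 0.241 ± 0.481, 1.76 ± 0.720 and 1.21 ± 0.379. The positions of Nell1 and Ano3 in the rat genome were not checked. RefSeq's order has Gas2, Svip and Ccdc179 before Luzp2 and Nipa1 and Siglech after it, so neither gene is next to Luzp2. The values of these 2 genes and the list's median are therefore not read as those of DNA beside Luzp2. Of 6 for Astn2, all 6 had a circle, and Cdk5rap2 and Pappa1 (Pappa in the list) could be tested. Cdk5rap2, which encodes a centrosomal protein, held 0 circles in all control libraries, 0.621 ± 0.727 at 5 Gy x2 and 1.49 ± 0.618 at 5 Gy x4 (circles per 10000 eccDNA), and was not called (edgeR adjusted p = 0.171 in 5 Gy x4). Pappa1, which encodes a protease of insulin-like growth factor binding proteins, stood at 0.762 ± 0.992, 1.15 ± 0.843 and 0.904 ± 0.353, with edgeR adjusted p = 0.927 in 5 Gy x4. Brinp1 stood at 0.521 ± 1.04, 0.792 ± 0.543 and 0.972 ± 0.289. The list's median log2 fold change against control was 2.46 in 5 Gy x4 and 2.45 in 5 Gy x2, and 0.37 and 0.34 with Cdk5rap2 at the bound of 3 circles.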

How the data were processed

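In Circle-seq, linear DNA is removed by exonuclease before sequencing. Per the labels' protocols, a plasmid column kit preceded the digestion, and beads and a transposase-based library kit followed it. The authors deposited whole-number counts of supporting reads per listed circle and library, with no normalization, and annotation tables. The submitters' processing notes name BWA, Picard, bedtools and rn6; for the circle caller and the rule for merging circles between libraries, nothing is stated (not given in the sources used here). Coordinates are printed 1-based, from 0-based starts. Each annotation table has 9 columns of values per library that were not used. In 203 entries, none of them of the 2 genes, library counts summed to less than the table's total.

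Circles per gene and library were counted in Python 3.11.15 (pandas 2.3.3, numpy 2.4.6) and fitted in R 4.3.3 with edgeR 4.0.16 (quasi-likelihood F test, group as the only term, Benjamini-Hochberg adjustment) for 934 of 14890 genes with at least 20 circles in total; SE is the size of the log2 fold change over the root of F. Library size was the number of eccDNA, with no TMM factor outside the alternatives. Flanks and circle properties were compared by exact permutation tests written in Python. The exact binomial intervals were computed with scipy 1.17.1. Alternatives were TMM, DESeq2 1.42.0 (size factors from positive counts), other filters, at least 2 supporting reads, hconf circles, length classes, other scales, a replicate block, flanks of 1 and 5 Mb, and leaving out each library. Scripts were tested on simulated counts. The members, lists and tests were chosen with earlier results of these data known. Named were the 2 genes, the 5 genes whose shares correlated best with each over the libraries, the 3 members of each list with most circles (Gabrg3 among them), and circles in 2 or more libraries, the longest, the best supported and the exonic; some items under this rule are not reported here. RefSeq (GRCr8) was used for gene order and to match 2 listed symbols to older names, and all coordinates are rn6.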

Additional observations from a re-analysis of the deposited data

Results flagged for a closer look

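Of 59 sets of 4 libraries checked, 3 had a library far from the other 3 by Dixon's criterion, about as many as the 1 in 20 that chance gives. The Luzp2 share of 5 Gy x2 replicate 3, 3.64 circles per 10000 eccDNA, lay below the other 3 libraries of its group (6.26 to 6.32). The number of Luzp2 circles shared with a second gene in 5 Gy x2 replicate 4, a library of 6326 eccDNA, was 3 against 9 in each of the other 3. The median length of circles of both genes in 5 Gy x4 replicate 4 was 391.5 bp against 370 to 372 bp in the other 3.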

How the results depend on the processing

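Few control circles limit these results. The mean share of Luzp2 and of Astn2 was above the control mean at both doses under every alternative and without any 1 library. Single libraries overlapped control under some alternatives, as with hconf circles for Luzp2 in 5 Gy x2 and for Astn2 at both doses. Both genes were chosen with the 5 Gy x4 contrast known, so this steadiness is no support for it. Leaving out each library in turn, the Luzp2 difference ran from 3.46 to 4.92 circles per 10000 in 5 Gy x4 and from 3.95 to 5.03 in 5 Gy x2, and that of Astn2 from 3.67 to 4.95 and from 1.72 to 3.01. Per 10000 exon or intron circles, a smaller base by construction, the Luzp2 differences were 11.6 (5 Gy x4) and 12.1 (5 Gy x2) and those of Astn2 11.5 and 6.44. Among hconf circles the Luzp2 difference in 5 Gy x2 was 6.34. In a split added after the data were seen, circles with Luzp2 alone gave 2.44 (5 Gy x4) and 1.66 (5 Gy x2) and those shared with a second gene 1.82 and 2.70. The Luzp2 log2 fold change of 5 Gy x4 against 5 Gy x2 turned to 0.0601 with TMM, 0.0891 with DESeq2, 0.0677 with at least 2 reads and 0.0915 with hconf circles, and ran from -0.26 to 0.15 without single libraries (above 0 without 5 Gy x2 replicate 1 or 2 or 5 Gy x4 replicate 2). The adjusted p ran from 0.921 to 0.999 over its settings, and for Astn2 from 0.756 to 0.999; TMM and DESeq2 also moved the median of all genes in this comparison, from 0.00335 to 0.107 and 0.115, and the causes of the turned signs were not tested. The 12 pairs of samples sharing a number had correlations of deviations from -0.05 to 0.16, above 0.1 in 1. With so few circles per gene, low values cannot settle whether the numbers pair the samples. With the replicate block, which pairs samples by number, the log2 fold change of 5 Gy x4 against 5 Gy x2 was -0.09 for Luzp2 and 0.49 for Astn2. The block changed no call of either gene. Genes called in 5 Gy x4 against control numbered 20, but 6 with TMM, 0 with DESeq2, 8 with filterByExpr, 5 with hconf circles and 4 to 20 without single libraries (4 without control replicate 4, 11 without control replicate 2, 12 without control replicate 3 and 13 without 5 Gy x4 replicate 2). In 5 Gy x2 they numbered 7, but 0 with TMM, DESeq2 and hconf circles and 3 to 8 without single libraries (3 without control replicate 4 or 5 Gy x2 replicate 3). The Astn2 flanks differed between the doses by -0.0255 to 0.0255 percentage points without single libraries. Against other genic circles, the 330 to under 420 bp share turned to -0.974 points with at least 2 reads, and with intron circles only the median length to 3.67 bp and the hconf share to -2.11 points; without single libraries the 4 measures ran from -4.13 to 6.56 bp, -0.182 to 1.76 points, -0.625 to 0.438 reads and -1.36 to 2.33 points. Between the doses the median length differed by 28.5 bp with at least 2 reads and 6.88 bp with intron circles only, beside 16.9 bp. With intron circles only, the 330 to under 420 bp share turned to -2.92 and the hconf share to 3.01 points; without single libraries these ran from -4.53 to 3.37 and -6.89 to 3.24 points, and the median reads from -4.29 to 0.875. None of these passed a threshold.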
